A study of Arabidopsis thaliana with 6 samples.

Results

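The 44 genes described here encode the histones of Arabidopsis thaliana chromatin: 5 H3.1, 3 H3.3, 8 H4, 4 canonical H2A, 2 H2A.X, 4 H2A.Z, 3 H2A.W, 11 H2B and 3 linker histone H1 genes, and the centromeric histone CENH3. They were chosen by AGI locus code from the 31276 genes of the deposited table, and all 44 were listed there. The choice went by family and not by their values, although earlier results of these data were known. RNA was sequenced from callus of wild-type Col-0 hypocotyls kept for 7 days on callus-inducing medium (day 7), and from hypocotyl explants taken at excision from 1-week-old seedlings (day 0), with 3 libraries per day. No other allele or agent separated the groups, so time on the medium, wounding and culture cannot be told apart. The tissue label reads callus for all 6 libraries, and the sample titles set the day. The design text calls the replicates biological, and whether plants were pooled is not given in the sources used here. Of the 44 genes, 21 carry a RefSeq symbol and the other 23 are named by AGI code.

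Nucleosomes hold DNA wrapped on an octamer of H2A, H2B, H3 and H4, and H1 binds the linker between them. H3.1 is laid down behind replication forks by the chromatin assembly factor CAF-1, whereas H3.3 is exchanged outside replication by the HIRA complex and is common over active genes. Among plant H2A variants, H2A.X is phosphorylated at DNA breaks, H2A.Z marks genes and is put in place by the SWR1 complex, and H2A.W lies in heterochromatin. CENH3 replaces H3 at centromeres.

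The H3.1 and H3.3 proteins are nearly alike, and the coding sequences below show bases that separate the listed classes. The bases were picked by the class labels, so they are no check of the class of a gene. The stretch from base 85 to base 126 of the coding sequence is shown because 5 of the 12 bases that differ between all 5 H3.1 and all 3 H3.3 genes fall in it. The coding sequences come from RefSeq on TAIR10.1, read on each gene's strand, and capitals mark those 5 bases.
AT5G65360 (H3.1): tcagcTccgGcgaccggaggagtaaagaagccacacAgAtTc
AT1G09200 (H3.1): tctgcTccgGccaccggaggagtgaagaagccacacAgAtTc
AT3G27360 (H3.1): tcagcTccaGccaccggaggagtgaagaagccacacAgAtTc
AT5G10400 (H3.1): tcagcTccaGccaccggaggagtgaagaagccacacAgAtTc
AT5G10390 (H3.1): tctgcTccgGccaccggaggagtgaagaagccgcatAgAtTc
AT4G40030 (H3.3): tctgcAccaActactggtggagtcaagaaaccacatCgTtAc
AT4G40040 (H3.3): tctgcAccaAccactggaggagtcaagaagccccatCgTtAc
AT5G10980 (H3.3): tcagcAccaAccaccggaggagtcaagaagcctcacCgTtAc

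Across whole coding sequences, H3.1 genes were 80.3 to 89.5% identical to one another, H3.3 genes 78.6 to 88.8%, and an H3.1 gene and an H3.3 gene 74.7 to 81.3%. The closest copies in the family were H4 genes, with 98.1% identity between AT1G07660 and AT1G07820 and 97.4% between AT3G45930 and AT3G46320. How reads shared by such copies were assigned is not given in the sources used here, so single H4 genes are uncertain and the H4 sum is given beside them.

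Plant histone promoters are known for a conserved octamer, CGCGGATC. On either strand, it occurred between 250 bases before and 50 bases after the RefSeq start of 10 of the 44 histone genes (22.7%), against 40 of 27443 nuclear protein-coding genes (0.146%), histone genes included. The windows below show it in capitals with 10 bases on either side, on the strand on which the octamer reads as spelled.
AT5G65360 (H3.1), chr5:26120690-26120717, minus strand: ttagacgtgaCGCGGATCactaaaatta
AT1G09200 (H3.1), chr1:2972407-2972434, minus strand: cgtaccttcaCGCGGATCagtgttagaa
AT5G10400 (H3.1), chr5:3271060-3271087, minus strand: taacacaggaCGCGGATCgtaaagatac
AT4G40040 (H3.3), chr4:18558945-18558972, plus strand: tacaaaccgtCGCGGATCgctgaaataa
AT1G07660 (H4), chr1:2368697-2368724, plus strand: acagatttcaCGCGGATCgcaatcttgg
AT5G59690 (H4), chr5:24051393-24051420, plus strand: actgccatcaCGCGGATCactaatatga
HTA6 (AT5G59870, H2A.W), chr5:24116319-24116346, minus strand: tacatagtcaCGCGGATCgtgctttatt
HTA10 (AT1G51060, canonical H2A), chr1:18926727-18926754, plus strand: ttcactctgaCGCGGATCctgaatctcg
HTA13 (AT3G20670, canonical H2A), chr3:7229312-7229339, minus strand: taaacaatcaCGCGGATCgatgttactg
AT1G06760 (H1), chr1:2077778-2077805, plus strand: acaatgactaCGCGGATCgctactcttt

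AT1G09200 and HTA10 each held the octamer 2 times, and 1 copy is shown. No H2B, H2A.X or H2A.Z window held it. Another element, the hexamer ACGTCA, was found in the windows of 9 of 11 H2B genes (81.8%), against 9.19% of all nuclear protein-coding genes. It also occurred in 2 of 5 H3.1, 1 of 3 H3.3 and 1 of 8 H4 windows, 13 of 44 in all, and AT5G10400 held both elements. Windows from 4 of these H2B genes show its surroundings, with the hexamer in capitals.
HTB2 (AT5G22880), chr5:7652894-7652919, minus strand: aaaagtaaccACGTCAgctatccacg
HTB9 (AT3G45980), chr3:16898154-16898179, minus strand: caatattgacACGTCAtcgatcccgc
HTB11 (AT3G46030), chr3:16914204-16914229, minus strand: aatatattccACGTCAtcaatcctcg
AT3G53650 (H2B), chr3:19889191-19889216, plus strand: gatggatgacACGTCAtcgatccgca

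The E2F core TTCCCGC, read by the S-phase E2F factors, was found in 2 of the 44 windows (HTB4 and HTB9), against 1.53% of all nuclear protein-coding genes. The core CCAACGG of mitosis-specific activator elements was found in 4, against 1.85%, and no motif matches overlapped within a window. These matches are letters in a window and not sites of binding. The 10 genes with the octamer had log2 differences between day 7 and day 0 from -0.34 to 0.98 with a median of 0.28, and the 32 tested genes without it from -1.16 to 1.3 with a median of 0.14.

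The values are TPM, a transcript abundance that corrects for transcript length and sums to a fixed total per library but keeps no sequencing depth. The listed genes did not fill this total: 20.6, 9.19 and 20.4% of it was not listed at day 7, against 18.8, 7.76 and 13.9% at day 0. Nuclear genes that code for proteins held 37.6, 80.95 and 52.0% of the TPM total in the day 7 libraries, against 59.5, 86.4 and 71.2% in the day 0 libraries. Nuclear ribosomal RNA held 38.9, 8.44 and 25.3% at day 7, against 18.0, 4.19 and 12.1% at day 0. The libraries labelled replicate 2 had the least ribosomal RNA and the highest scale factors of their day, 1.56 at day 7 and 1.23 at day 0. Differences were computed on the deposited scale and after median-of-ratios scaling, which divides a library by such a factor, its median gene-wise ratio to the geometric mean of all libraries. Shares within a histone class do not depend on either scale. Of 7 markers of root-meristem-like callus, 5 rose as deposited, and the 7 summed to 294 to 598 TPM at day 7, against 47.6 to 60.2 at day 0. SCR was called higher after median-of-ratios scaling and not as deposited. WOX5 was called on neither scale, with 10.5, 25.9 and 11.8 TPM at day 7, against 17.5, 15.6 and 19.7 TPM at day 0. As deposited, 13.4% of all tested genes were called higher and 16.2% lower. All 5 green tissue markers fell as deposited, to sums of 3.20 to 6.88 TPM at day 7, against 69.3 to 533 at day 0, with the top value in day 0 replicate 3. After median-of-ratios scaling 4 were called lower, against 33.9% of all tested genes. CAB3 was not called there (adjusted p = 0.0865 in limma), with 1.57, 1.55 and 84.6 TPM at day 0. All 4 epidermal markers also fell, to 12.7 to 40.3 TPM at day 7, against 323 to 695 TPM at day 0. Of 8 mitotic genes, CYCB2;1, a B-type cyclin, was the one called as deposited. It rose 2.87-fold, a call lost without any of day 7 replicate 3 and day 0 replicates 1, 2 and 3. With median-of-ratios factors applied, 6 of the 8 were called higher, against 31% of all tested genes. Rescaled to nuclear protein-coding TPM, 7 were called higher, against 49.6% of all tested genes. The median log2 difference of the 8 mitotic genes was 0.65 as deposited. Their sum was 189 to 428 TPM at day 7, against 156 to 204 at day 0, with overlap. The part of this change in cell types in the histone results was not tested.

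Histone mRNAs were abundant on both days. The filter for testing asked for 1 TPM or more in 3 or more libraries and kept 42 genes, of which 36 were at or above the median tested gene and 27 were in the top 10%. HTA4, an H2A.Z gene, was listed at 0 in all 6 libraries, and the H2B gene AT1G08170 at 0.24 TPM in day 7 replicate 1 and at 0 elsewhere. Together the 44 genes summed to 3163, 7395 and 4383 TPM at day 7, against 3716, 4053 and 4512 TPM at day 0, and these groups overlapped. The ratio of means was 1.22 as deposited, 1.08 after median-of-ratios scaling and 0.922 as deposited without day 7 replicate 2. Within nuclear protein-coding TPM they took 0.866% ± 0.042 at day 7, against 0.576% ± 0.093 at day 0 (mean ± SD of 3 libraries a day). On that scale the median log2 difference of all tested genes was also above 0, at 0.42. In bulk tissue, a change in the number of cells making histone mRNA and a change in its amount per cell cannot be told apart.

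Single histone genes mostly did not pass the test on the deposited scale. In limma's moderated test of log2(TPM + 1), 18608 genes were tested, p-values were adjusted by Benjamini-Hochberg and the threshold was 0.05. By this test 1 histone gene rose (the H1 variant gene HIS1-3) and 1 fell (the H2B gene AT5G02570), while 40 were not called. Over all tested genes 29.6% were called, 13.4% higher and 16.2% lower. On this scale limma shrank the spread of each gene fully to the trend common to all genes, which gave the histone genes standard errors of 0.38 to 0.44, against 0.10 to 0.55 after median-of-ratios scaling. After median-of-ratios scaling, 10 histone genes were called higher and 9 lower, against 64.9% of all tested genes, 31% higher and 33.9% lower. After rescaling to nuclear protein-coding TPM, 25 were called higher and 1 lower, against 70.6% of all genes, 49.6% higher and 21% lower. The median log2 difference of the histone genes was 0.24 as deposited, 0.17 after median-of-ratios scaling and 0.65 after coding rescaling, and that of all tested genes was 0.05, -0.01 and 0.42 in the same order of scales. TPM did not overlap between days for 8 of the 42 tested histone genes, against 38.7% of all tested genes.

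**Figure D1:**
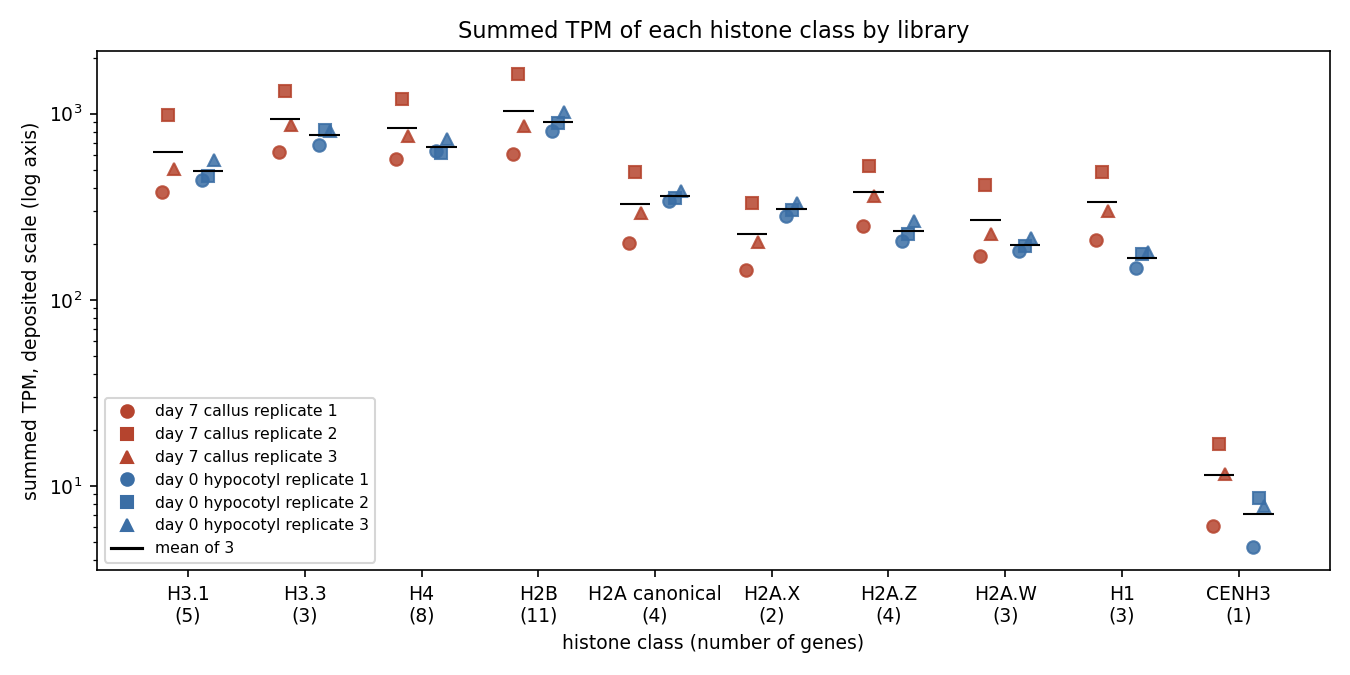
Summed TPM of each histone class on a log axis, as deposited, with day 7 callus (red) left of day 0 hypocotyl (blue), a point per library and a black line for the mean of 3. H1 is the class whose days do not overlap, at 210 to 489 TPM at day 7 and 148 to 181 TPM at day 0, and day 7 replicate 2 is the highest day 7 library in every class.

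**Figure D2:**
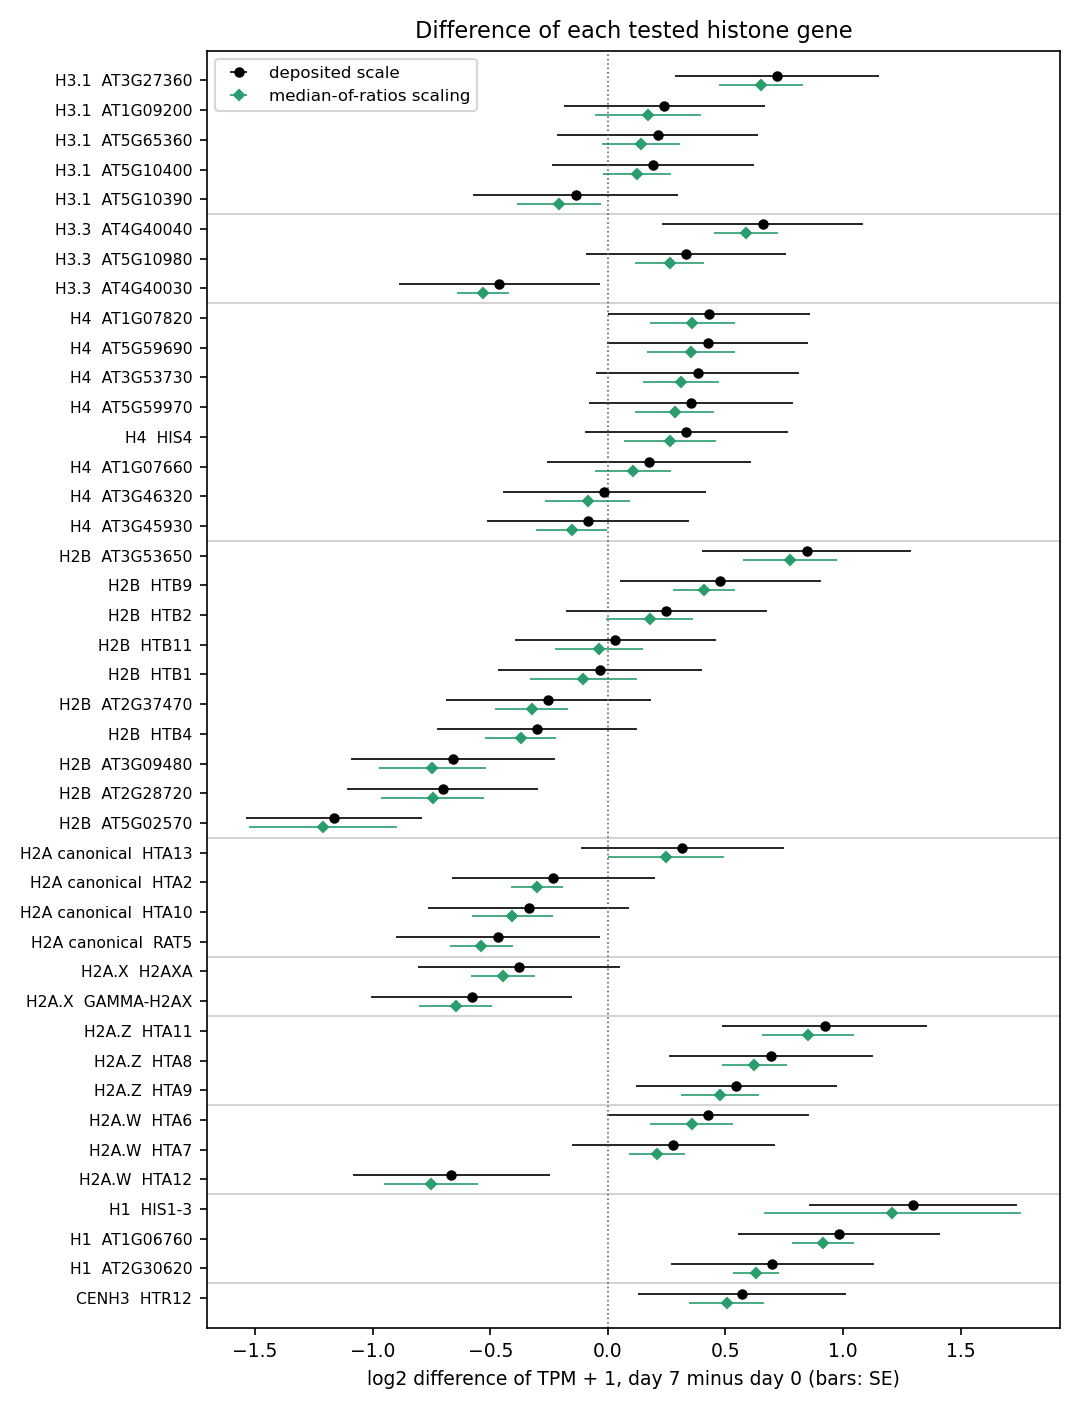
Log2 difference of TPM + 1, day 7 minus day 0, for each of the 42 tested histone genes, ordered by class and then by size, on the deposited scale (circles) and after median-of-ratios scaling (diamonds), with standard errors as bars. H2A.Z and H1 genes lie to the right of 0, the H2A.X genes to the left, and H2B and H3.3 genes on both sides.

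The replication-type H3.1 genes held a like share of H3 on both days. H3.1 made up 37.8, 42.6 and 36.9% of H3 transcripts at day 7, against 39.3, 36.1 and 41.3% at day 0, and the days overlapped. The H3.1 sum was 623 ± 320 TPM at day 7, against 489 ± 67.8 TPM at day 0 (mean ± SD of 3 libraries a day), a ratio of 1.27 as deposited, 1.11 after median-of-ratios scaling and 0.902 as deposited without day 7 replicate 2. The most abundant gene, AT5G65360, had 132, 322 and 171 TPM at day 7, against 152, 162 and 190 TPM at day 0, with an adjusted p of 0.76 in limma. AT1G09200 followed with 112, 282 and 154 TPM at day 7, against 130, 121 and 186 TPM at day 0. In both genes day 7 replicate 2 was the top library and day 7 replicate 1 the lowest, so the groups overlapped.

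AT3G27360 stood apart within H3.1, with 44.7, 120 and 55.4 TPM at day 7, against 37.7, 39.0 and 44.2 TPM at day 0. These groups did not overlap, but day 7 replicate 1 was barely above day 0 replicate 3. Its log2 difference of 0.72 ± 0.43 (SE) did not pass the limma test as deposited (adjusted p = 0.21) and passed after median-of-ratios scaling (0.65 ± 0.18, adjusted p = 0.0127). Within H3.1 it held 11.8, 12.2 and 10.9% at day 7, against 8.58, 8.42 and 7.80% at day 0. AT5G10390, the least abundant H3.1 gene at day 7 but not at day 0, lies 577 bases from AT5G10400 on the same strand and held 7.10 to 8.71% of H3.1 at day 7, against 9.05 to 10.9% at day 0.

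Within H3.3, 2 adjacent genes were called in opposite directions after median-of-ratios scaling, AT4G40040 higher and AT4G40030 lower. On that scale 31% of all tested genes were called higher and 33.9% lower. AT4G40040 (chr4:18557149-18558945, minus strand) ends 42 bases from the start of AT4G40030 (chr4:18555532-18557106, minus strand), and the window before the AT4G40030 start lies largely inside its neighbour. AT4G40040 had 299, 568 and 390 TPM at day 7, against 231, 273 and 266 TPM at day 0. All 3 day 7 libraries were above all 3 day 0 libraries, a ratio of means of 1.63. AT4G40030 had 137, 321 and 204 TPM at day 7, against 248, 322 and 294 TPM at day 0. Only day 7 replicate 2 reached the day 0 range.

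As deposited, neither difference passed the limma test, with log2 0.66 ± 0.43 (adjusted p = 0.26) for AT4G40040 and -0.46 ± 0.43 (adjusted p = 0.46) for AT4G40030. After median-of-ratios scaling, AT4G40040 was called higher (0.59 ± 0.14, adjusted p = 5.68e-03) and AT4G40030 lower (-0.53 ± 0.11, adjusted p = 3.52e-03). The ratio of AT4G40030 to AT4G40040 TPM in a library needs no scaling: it was 0.459, 0.565 and 0.522 at day 7, against 1.08, 1.18 and 1.104 at day 0. AT4G40030 was thus the more abundant of the pair in every day 0 library and the less abundant in every day 7 library. The share of H3.3 held by AT4G40030 was 23.3% ± 1.06 at day 7, against 37.5% ± 1.62 at day 0 (mean ± SD of 3 libraries a day).

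The remaining H3.3 gene, AT5G10980, had 185, 439 and 270 TPM at day 7, against 200, 224 and 245 TPM at day 0, and was called on neither of these 2 scales. H3.3 as a whole summed to 621, 1327 and 864 TPM at day 7, against 679, 819 and 805 TPM at day 0, a ratio of means of 1.22 as deposited, 1.11 after median-of-ratios scaling and 0.967 as deposited without day 7 replicate 2. The sums of the 2 days overlapped.

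**Figure D3:**
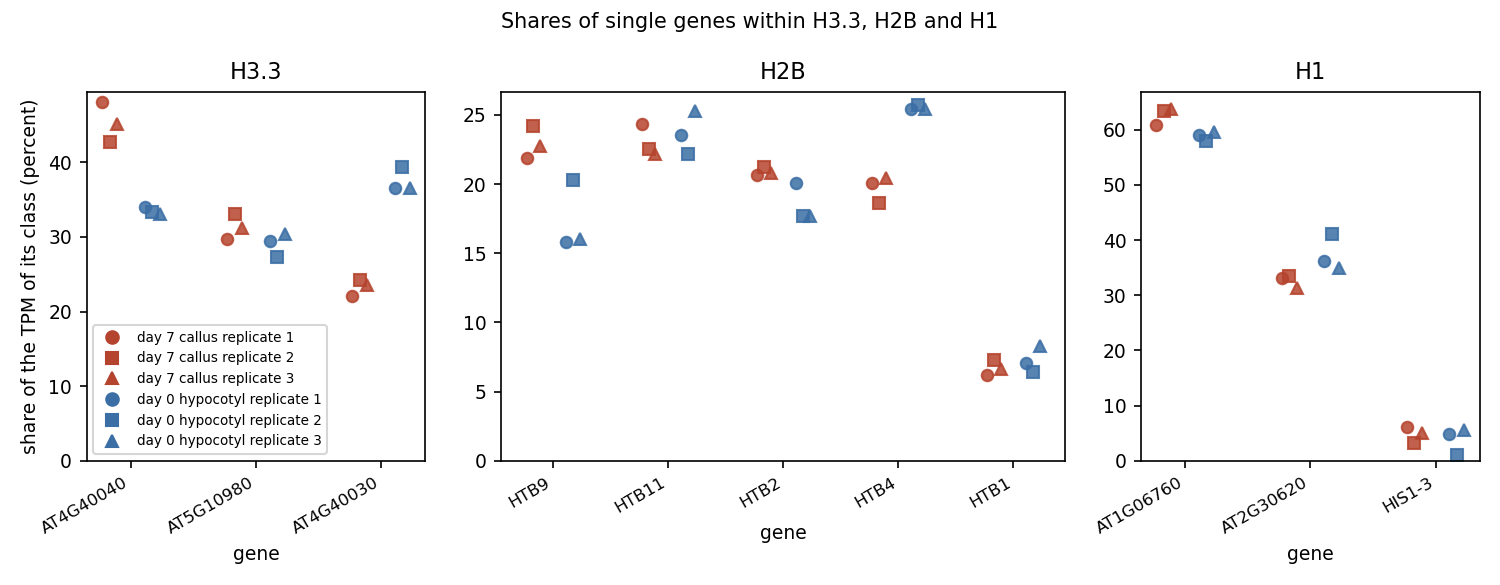
Share of the TPM of its class held by single genes of H3.3, H2B (the 5 most abundant genes) and H1, in percent, with day 7 callus (red) left of day 0 hypocotyl (blue) and a point per library. AT4G40040 took 42.8 to 48.1% of H3.3 at day 7, against 33.1 to 34.0% at day 0, and AT4G40030 22.1 to 24.2% at day 7, against 36.5 to 39.3% at day 0.

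H4, which is not split into variant classes here and pairs with H3 in the nucleosome, showed no called gene as deposited or after median-of-ratios scaling. Its 8 genes summed to 571, 1194 and 757 TPM at day 7, against 627, 615 and 733 TPM at day 0, with overlap. The ratio of means was 1.28 as deposited, 1.14 after median-of-ratios scaling and 1.01 as deposited without day 7 replicate 2. The most abundant, AT5G59690, had 151, 303 and 198 TPM at day 7, against 145, 141 and 182 TPM at day 0, and AT1G07820 had 103, 208 and 137 TPM at day 7, against 101, 97.7 and 120 TPM at day 0. Log2 differences over the 8 genes ran from -0.08 to 0.43 as deposited, with a median of 0.34. After coding rescaling, 6 of the 8 genes were called higher, against 49.6% of all tested genes.

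Inside H4, the shares of 7 of the 8 genes (all but HIS4) did not overlap between days, 4 of them higher and 3 lower at day 7. This was not particular to H4: the same held for 7 of 10 tested H2B, 2 of 5 H3.1 and 2 of 4 canonical H2A genes. It also held for 2 of 3 tested genes in each of H3.3, H2A.Z, H2A.W and H1, and for both H2A.X genes. Shares of a class sum to a fixed total, so they are not separate observations, and no share over all tested genes exists for this measure. AT5G59690 held 26.4, 25.4 and 26.2% of H4 at day 7, against 23.2, 22.9 and 24.9% at day 0. AT3G45930 held 9.02, 10.05 and 8.99% at day 7, against 11.5, 12.8 and 12.2% at day 0. Its near-identical copy AT3G46320 held 8.58, 9.57 and 8.61% at day 7, against 10.7, 10.7 and 11.7% at day 0. These 2 copies were named after their values were seen. The ratio of H3 to H4 transcripts was 1.83 ± 0.097 at day 7, against 1.91 ± 0.155 at day 0 (mean ± SD of 3 libraries a day), which overlapped.

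The makeup of H2A differed between days, with more H2A.Z and H2A.W and less H2A.X and canonical H2A among day 7 transcripts. H2A.Z made up 32.3, 29.9 and 33.4% of H2A transcripts at day 7, against 20.6, 20.8 and 22.2% at day 0. H2A.X made up 18.8, 18.9 and 18.9% at day 7, against 28.0, 28.2 and 27.8% at day 0. For both variants the gap between days was larger than the whole spread among libraries of a day. Canonical H2A took 26.5, 27.7 and 27.0% at day 7, against 33.4, 32.8 and 32.2% at day 0, and H2A.W 22.4, 23.4 and 20.7% at day 7, against 18.0, 18.1 and 17.9% at day 0. None of the 4 shares overlapped between days, although they sum to a fixed total and are not 4 separate observations. With 3 libraries against 3, an exact permutation test cannot go below 0.1 (two-sided), so no p is given for these shares. The ratio of H2A.Z to H2A.X transcripts was 1.69 ± 0.096 at day 7, against 0.758 ± 0.037 at day 0 (mean ± SD of 3 libraries a day).

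**Figure D4:**
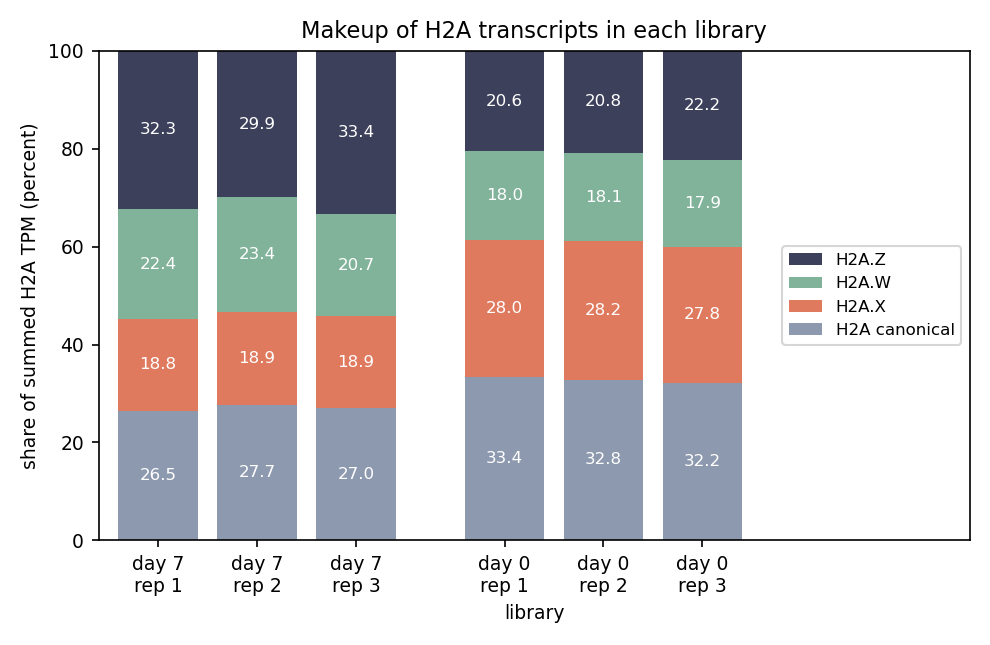
Makeup of summed H2A TPM in each library, in percent, for canonical H2A, H2A.X, H2A.W and H2A.Z, with the 3 day 7 libraries left of the 3 day 0 libraries. H2A.X stays within 18.8 to 18.9% at day 7 and 27.8 to 28.2% at day 0, and H2A.Z is 29.9 to 33.4% at day 7 and 20.6 to 22.2% at day 0.

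All 3 expressed H2A.Z genes lay on the higher side at day 7 under all 3 scales. HTA9, the most abundant, had 159, 312 and 230 TPM at day 7, against 137, 149 and 178 TPM at day 0. HTA8 had 44.5, 114 and 69.4 TPM at day 7, against 40.0, 45.1 and 45.2 TPM at day 0, and in both genes only day 7 replicate 1 fell inside the day 0 range. HTA11 (chr3:20196140-20197726) had 45.1, 100.2 and 63.6 TPM at day 7, against 31.0, 30.3 and 43.3 TPM at day 0, with no overlap and a ratio of means of 2.00. As deposited, none passed the limma test, with log2 differences of 0.55 to 0.92 and an adjusted p of 0.0962 for HTA11. After median-of-ratios scaling, limma called all 3 higher, against 31% of all tested genes. The differences on that scale were 0.85 ± 0.20 for HTA11 (adjusted p = 5.54e-03 in limma), 0.62 ± 0.14 for HTA8 (adjusted p = 4.56e-03) and 0.48 ± 0.17 for HTA9 (adjusted p = 0.0334). Within H2A.Z, HTA11 held 18.2, 19.0 and 17.5% at day 7, against 14.9, 13.5 and 16.3% at day 0.

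Both H2A.X genes lay on the lower side at day 7 as deposited, and only H2AXA changed sign, to 0.02, under coding rescaling. GAMMA-H2AX had 90.9, 218 and 133 TPM at day 7, against 195, 204 and 223 TPM at day 0, so 2 of the 3 day 7 libraries were below the day 0 range. Its log2 difference was -0.58 ± 0.43 as deposited (adjusted p = 0.33 in limma) and -0.65 ± 0.16 after median-of-ratios scaling (adjusted p = 6.84e-03). H2AXA had 53.0, 114 and 71.9 TPM at day 7, against 87.1, 100.1 and 110 TPM at day 0. It was called lower after median-of-ratios scaling (-0.45 ± 0.14, adjusted p = 0.0197) and not as deposited (adjusted p = 0.56).

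Canonical H2A held genes on both sides. HTA10 had 96.8, 222 and 142 TPM at day 7, against 171, 173 and 208 TPM at day 0, and was called on no scale. HTA2 had 40.1, 97.3 and 53.4 TPM at day 7, against 62.5, 80.99 and 67.4 TPM at day 0. RAT5 (HTA1), named for a mutant resistant to Agrobacterium transformation, had 22.8, 57.1 and 36.4 TPM at day 7, against 48.2, 57.4 and 46.6 TPM at day 0. RAT5 (log2 -0.54 ± 0.13, adjusted p = 7.95e-03) and HTA2 (-0.30 ± 0.11, adjusted p = 0.0415) were called lower by limma after median-of-ratios scaling only, and HTA2 changed sign to 0.16 under coding rescaling. HTA13 had a positive log2 difference (0.32, not called as deposited) and held 21.3, 22.9 and 20.9% of canonical H2A at day 7, against 16.6, 12.1 and 16.4% at day 0.

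Among the H2A.W genes, HTA6 and HTA7 carried nearly all transcripts. HTA6 had 117, 291 and 155 TPM at day 7, against 122, 122 and 145 TPM at day 0, and HTA7 had 53.5, 114 and 65.4 TPM at day 7, against 53.4, 65.7 and 63.5 TPM at day 0. Neither was called as deposited or after median-of-ratios scaling. HTA12 was low, with 1.80, 6.37 and 4.08 TPM at day 7, against 6.28, 7.10 and 6.09 TPM at day 0, and limma called it lower after median-of-ratios scaling (-0.75 ± 0.20, adjusted p = 0.0107).

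The H2B gene AT5G02570 (chr5:576655-577176, minus strand) fell, to 0.87, 1.28 and 2.39 TPM at day 7, against 3.85, 3.46 and 6.52 TPM at day 0. The groups did not overlap, and the log2 difference was -1.16 ± 0.38 as deposited (adjusted p = 8.99e-03 in limma) and -1.21 ± 0.31 after median-of-ratios scaling (adjusted p = 9.53e-03). The deposited call was lost without day 0 replicate 3 (log2 -0.93, adjusted p = 0.13). All 522 bases of this gene lie inside HTA12 (chr5:575225-577216, plus strand) on the opposite strand. Whether reads were counted by strand is not given in the sources used here, so transcripts of AT5G02570 and HTA12 cannot be told apart.

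The H2B sum overlapped between days, while the shares of HTB9 and HTB4 within it did not. H2B summed to 610, 1626 and 858 TPM at day 7, against 808, 893 and 1020 TPM at day 0, and the ratio of means was 1.14 as deposited, 0.991 after median-of-ratios scaling and 0.809 as deposited without day 7 replicate 2. HTB9 had 134, 393 and 195 TPM at day 7, against 128, 181 and 163 TPM at day 0, which was 21.9, 24.2 and 22.8% of H2B at day 7, against 15.8, 20.3 and 16.0% at day 0. Limma called HTB9 higher after median-of-ratios scaling (0.41 ± 0.13, adjusted p = 0.0257) and not as deposited (adjusted p = 0.44). HTB4 held 20.09, 18.6 and 20.4% of H2B at day 7, against 25.4, 25.7 and 25.4% at day 0, with no overlap. HTB11, the closest H2B gene to HTB9 with 90.1% coding identity, had 149, 366 and 190 TPM at day 7, against 190, 198 and 258 TPM at day 0, and its log2 difference was 0.03 as deposited and -0.04 after scaling. HTB1, HTB2, HTB4 and AT2G37470 were called neither as deposited nor after median-of-ratios scaling.

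Among the less abundant H2B genes, 3 were called by limma after median-of-ratios scaling and not as deposited. On the scaled values 64.9% of all tested genes were called. By mean TPM, AT3G53650 was at percentile 58.9 of tested genes, AT2G28720 at 19.9 and AT3G09480 at 33.0. AT3G53650 had 14.1, 31.0 and 19.1 TPM at day 7, against 12.1, 10.09 and 10.6 TPM at day 0, and was higher (0.77 ± 0.20, adjusted p = 9.24e-03). AT2G28720 had 2.57, 2.98 and 3.14 TPM at day 7, against 4.85, 7.36 and 4.18 TPM at day 0, and was lower (-0.74 ± 0.22, adjusted p = 0.0171). AT3G09480 had 2.52, 9.76 and 4.99 TPM at day 7, against 8.94, 8.41 and 8.53 TPM at day 0, and was lower (-0.75 ± 0.23, adjusted p = 0.0202). The H2A to H2B ratio of summed TPM was 1.2 ± 0.104 at day 7, against 1.21 ± 0.037 at day 0 (mean ± SD of 3 libraries a day).

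Linker histone H1 was the class whose sum separated the days on every scale. It summed to 210, 489 and 301 TPM at day 7, against 148, 177 and 181 TPM at day 0, a ratio of means of 1.98 as deposited, 1.77 after median-of-ratios scaling and 2.46 after coding rescaling. H1 took 6.65, 6.61 and 6.86% of all histone TPM at day 7, against 3.98, 4.37 and 4.02% at day 0. Per H4 transcript, H1 was 0.368, 0.409 and 0.397 at day 7, against 0.236, 0.288 and 0.247 at day 0.

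The abundant linker gene AT1G06760 (chr1:2076504-2077767) had 128, 310 and 192 TPM at day 7, against 87.4, 103 and 108 TPM at day 0. All day 7 libraries lay above all day 0 libraries, with a ratio of means of 2.11. Its log2 difference was 0.98 ± 0.43 as deposited, which did not pass (adjusted p = 0.0675 in limma), and 0.91 ± 0.13 after median-of-ratios scaling, which passed (adjusted p = 5.09e-04). AT2G30620 had 69.5, 164 and 94.1 TPM at day 7, against 53.5, 72.7 and 63.2 TPM at day 0, and was called after scaling (0.63 ± 0.10, adjusted p = 7.22e-04).

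HIS1-3 (AT2G18050, chr2:7845923-7847031), a linker variant known for induction by drought and abscisic acid, rose as deposited. It had 12.8, 15.4 and 15.1 TPM at day 7, against 7.03, 1.73 and 10.14 TPM at day 0, and the mean was 14.4 ± 1.44 TPM at day 7, against 6.30 ± 4.25 TPM at day 0 (mean ± SD of 3 libraries a day). The groups did not overlap, but the day 0 libraries differed widely, with replicate 2 far below the others. The log2 difference was 1.3 ± 0.44 (adjusted p = 0.0145 in limma). The call was lost after median-of-ratios scaling (log2 1.21, adjusted p = 0.0835), without day 7 replicate 3 (log2 1.27, adjusted p = 0.118) and without day 0 replicate 2 (log2 0.70, adjusted p = 0.358). Within H1, HIS1-3 held 6.07, 3.16 and 5.01% at day 7, against 4.75, 0.978 and 5.60% at day 0, which overlapped.

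CENH3 (HTR12, chr1:143489-146479) had 6.05, 16.8 and 11.6 TPM at day 7, against 4.71, 8.61 and 7.81 TPM at day 0. Day 7 replicate 1 fell inside the day 0 range. The log2 difference was 0.57 ± 0.44 as deposited (adjusted p = 0.36 in limma) and 0.51 ± 0.16 after median-of-ratios scaling (adjusted p = 0.024). Per 100 H3 transcripts, CENH3 was 0.728 ± 0.122 at day 7, against 0.554 ± 0.126 at day 0 (mean ± SD of 3 libraries a day), and the days overlapped.

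Genes that handle histones were counted from lists, with calls as deposited and then after median-of-ratios scaling. Of 8 genes listed for replication-coupled deposition, none was called as deposited, against 13.4% of all tested genes higher and 16.2% lower. After scaling 4 were called higher and 1 lower, against 31% and 33.9% of all tested genes. The list also held ATXR5 and ATXR6, which are not histone chaperones. MSI1, a subunit of CAF-1, was the gene called lower after scaling, with 27.5, 67.4 and 35.1 TPM at day 7, against 39.1, 58.9 and 51.8 TPM at day 0. ASF1B, an H3-H4 chaperone, had 14.6, 39.0 and 19.6 TPM at day 7, against 12.9, 18.1 and 14.3 TPM at day 0. Of 7 genes of H3.3 exchange and transcription, 1 rose as deposited, against 13.4% of all tested genes, and 5 were higher after scaling, against 31%. CABIN1, a HIRA complex subunit, had 6.99, 13.0 and 8.21 TPM at day 7, against 2.36, 5.26 and 3.08 TPM at day 0 (log2 1.2 ± 0.43, adjusted p = 0.021 in limma). Its call was lost without day 7 replicate 3 (log2 1.26, adjusted p = 0.0969), without day 0 replicate 1 (log2 0.999, adjusted p = 0.176) and without day 0 replicate 3 (log2 1.14, adjusted p = 0.162).

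The 5 H2A-H2B chaperone genes lay on the lower side as deposited, with a median log2 difference of -0.74, none of them called. After scaling all 5 were called lower, against 33.9% of all tested genes, and after coding rescaling 3 were, while NAP1;1 and NAP1;3 lay at 0.00 and 0.01. NRP1 had 116, 243 and 149 TPM at day 7, against 238, 293 and 282 TPM at day 0, and NAP1;2 had 91.6, 180 and 119 TPM at day 7, against 204, 287 and 233 TPM at day 0. The TPM of NRP1 and NRP2 per TPM of H2A and H2B was 0.114, 0.1005 and 0.106 at day 7, against 0.185, 0.210 and 0.181 at day 0, with no overlap. This ratio leaves out NAP1;1, NAP1;2 and NAP1;3, and no ratio with all 5 chaperone genes is given.

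Among 6 genes of H2A.Z exchange and H2A.W remodelling, INO80 and PIE1 rose as deposited, against 13.4% of all tested genes, and 3 were higher after scaling, against 31%. INO80, the ATPase of a remodelling complex, had 23.0, 42.5 and 28.8 TPM at day 7, against 4.14, 10.7 and 6.20 TPM at day 0 (log2 2.06 ± 0.44, adjusted p = 3.12e-05 in limma), and the call held without each library in turn. PIE1, the ATPase of the SWR1 complex that inserts H2A.Z, had 9.68, 18.8 and 11.8 TPM at day 7, against 3.27, 7.46 and 4.63 TPM at day 0 (1.24 ± 0.44, adjusted p = 0.0197 in limma). The PIE1 call was lost without day 7 replicate 3 (adjusted p = 0.101), day 0 replicate 1 (adjusted p = 0.186) or day 0 replicate 3 (adjusted p = 0.145), with log2 differences of 1.01 to 1.31. Of 4 genes of CENH3 loading and the centromere, KNL2, needed to load CENH3, rose to 5.24, 9.58 and 4.40 TPM at day 7, against 1.35, 2.20 and 2.34 TPM at day 0 (1.28 ± 0.40, adjusted p = 6.51e-03 in limma). The KNL2 call was lost without day 0 replicate 1 (log2 1.12, adjusted p = 0.0827). After scaling 2 of the 4 were higher, against 31% of all tested genes.

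Of 16 S-phase genes, 1 rose as deposited, against 13.4% of all tested genes. After scaling 9 were higher and 1 lower, against 31% and 33.9%. ICU2, the catalytic subunit of DNA polymerase alpha, had 10.7, 21.4 and 13.1 TPM at day 7, against 3.83, 9.39 and 5.25 TPM at day 0 (1.18 ± 0.44, adjusted p = 0.0287 in limma). The ICU2 call was lost without the filter on low values (adjusted p = 0.0533) and without day 7 replicate 3 (adjusted p = 0.128), day 0 replicate 1 (adjusted p = 0.234) or day 0 replicate 3 (adjusted p = 0.192). Of 5 H3 genes outside the 44, 1 passed the filter. HTR11 passed it with 1.11, 6.0 and 5.12 TPM at day 7, against 2.98, 3.40 and 3.46 TPM at day 0 and was not called, and AT1G13370 had 0.37, 1.40 and 0.39 TPM at day 7, against 0.96, 0.29 and 2.04 TPM at day 0. MGH3, an H3 gene of male gametes, was listed at 0 in all 6 libraries.

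**Figure D5:**
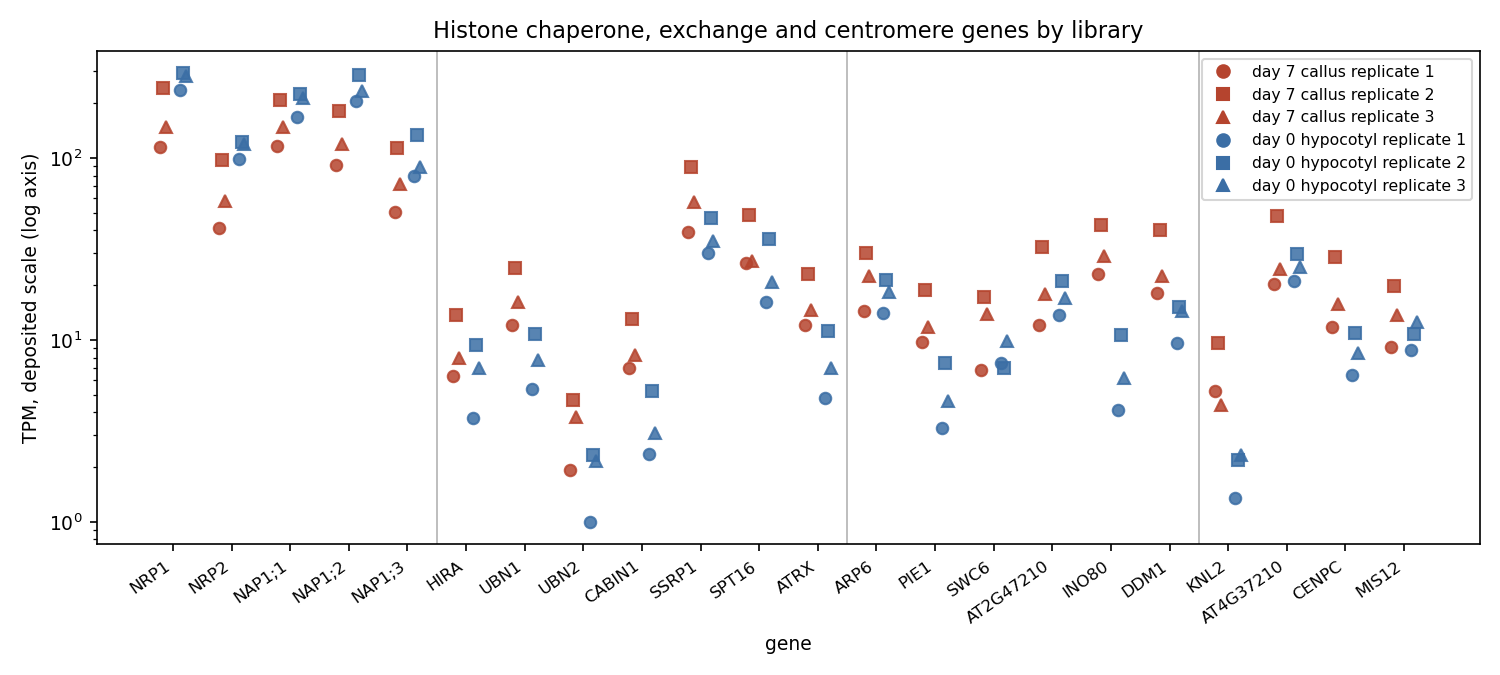
TPM on a log axis of the genes of 4 lists, from left to right 5 H2A-H2B chaperones, 7 H3.3 and transcription-coupled chaperones, 6 exchange and remodelling genes and 4 CENH3 loading and centromere genes, with day 7 callus (red) left of day 0 hypocotyl (blue) and a point per library. INO80 shows the widest gap of these genes, at 23.0 to 42.5 TPM at day 7 and 4.14 to 10.7 TPM at day 0, while NRP2 and NAP1;2 are lower in every day 7 library.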

How the data were processed

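The authors deposited 1 table of TPM per gene for 6 libraries, rounded to 2 decimals; it holds no counts, so depth is unknown and no interval or floor from counts is given. Per the submitters' processing notes, STAR 2.7.10a, RSEM 1.3.1 and the build TAIR10 were used, with no role given for each. Per the labels' protocols, libraries came from 1 µg of total RNA with a TruSeq RNA kit, with no statement on strand. Genes reaching 1 TPM in 3 or more libraries were tested on log2(TPM + 1) with limma 3.58.1 (trend, R 4.3.3), all 6 libraries, no block, and Benjamini-Hochberg adjustment over all 18608 tested genes. Fold changes on this scale understate low genes. Ratios of means, sums and shares were computed from TPM in Python 3.11.15 and get no test. The fit was also run on simulated data, with a pass criterion set for median-of-ratios scaling only and none for the deposited scale. Alternatives were median-of-ratios scaling (over genes above 0 in every library), rescaling to nuclear protein-coding TPM, a pseudocount of 0.1, no filter, a filter at 5 TPM, a replicate block, and leaving out each library or the most abundant gene. Coordinates, promoter windows and coding sequences come from RefSeq on TAIR10.1, matched by AGI code. Values are given for the 2 most abundant genes of each class, every called gene and every gene whose call or direction differed after median-of-ratios scaling, up to 30; other genes named were added after their values were seen. The members and lists were chosen with earlier results of these data known.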

Additional observations from a re-analysis of the deposited data

How the results depend on the processing

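The counts of called histone genes depend on the scale. Against 1 higher and 1 lower as deposited, there were 10 higher and 9 lower after median-of-ratios scaling and 25 higher after coding rescaling. Of all tested genes, 29.6% were called as deposited, 64.9% after median-of-ratios scaling and 70.6% after coding rescaling. The filter at 5 TPM left 0 lower, since AT5G02570 was then not tested. Replicate numbers were not treated as pairs: same-numbered libraries correlated at 0.097, 0.156 and 0.032 in their deviations, and day 7 replicate 3 correlated best with day 0 replicate 1. The scale factors of replicates 1, 2 and 3 ranked alike on both days, at 0.712, 1.56 and 0.979 at day 7, against 0.780, 1.23 and 0.984 at day 0. Whether the numbers are pairs is thus not settled. With a replicate block, 8 were higher and 2 lower, against 28.1% and 26.3% of all tested genes, and with the block and median-of-ratios scaling 11 were higher and 8 lower. Leaving out each library gave 0 to 7 higher, with 7 without day 7 replicate 1 and 0 without day 7 replicate 3 or day 0 replicate 2, and 0 to 5 lower, with 5 without day 7 replicate 2. For these fits and for the block with median-of-ratios scaling, no share over all tested genes is given. Their counts therefore cannot be set against all tested genes. A pseudocount of 0.1 and no filter kept the counts within 1.5 times. Without HTA9, the most abundant H2A gene over all 6 libraries though not at day 0, the difference in share (day 7 minus day 0, percentage points) was 6.73 for H2A.Z, 6.72 for H2A.W and -4.42 for canonical H2A, against 10.7, 4.19 and -5.75 with it. Without day 7 replicate 2, the ratio of summed TPM fell below 1 for H3.1, H3.3, all H3, all H2A, H2B and all 44 genes. It fell to 1.01 for H4 and for H2A.W. Without AT4G40040, the H3.1 share of H3 differed by 5.14 points, against 0.21 with it. HIS1-3 and AT5G02570 kept their direction under each of these alternatives that tested them. The cause of these changes was not tested. With TPM alone, the precision of low genes such as AT5G02570 and HTA12 cannot be set.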
